A study of Mus musculus with 13 samples.

Results

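The sirtuin family, the NAD-dependent deacylases Sirt1 to Sirt7, was followed in mouse hippocampus across 13 arrays. The members were taken by name: a probe set counted if the platform annotation gave it to 1 gene and that gene was one of the 7. Each of the 7 sirtuins had exactly 1 such probe set, no sirtuin shared a probe set with another gene, and the 7 genes stand among 19938 genes tested from 35556 probe sets. Whole hippocampi came from C57BL/6J mice aged 1 to 2 months on standard chow, with 1 array per mouse. Experiment 1 held 4 wild-type (Kmt2d+/+) and 3 Kmt2d+/βGeo mice, none of them injected. Experiment 2 held 3 wild-type and 3 Kmt2d+/βGeo mice, all given 3 saline injections a day as controls of another experiment. Kmt2d+/βGeo mice carry a βGeo insertion in 1 of their copies of Kmt2d, the gene of a histone H3 lysine 4 methyltransferase, and serve as a model of Kabuki syndrome. They are called heterozygous below. The labels give female sex for 12 mice and an unknown sex for replicate 3 of the uninjected wild-type mice.

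Sirtuins use NAD as a co-substrate to remove acetyl and other acyl groups from lysines, so their activity is tied to the NAD that a cell makes and spends. Sirt1, Sirt6 and Sirt7 work mainly in the nucleus, where they act on histones and transcription factors. Sirt2 is mainly cytosolic and is abundant in oligodendrocytes and myelin. Sirt3, Sirt4 and Sirt5 lie in mitochondria and act on enzymes of fuel oxidation, amino acid use and the urea cycle.

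All values are log2 intensities, where a difference of 1 is a doubling, and genotype differences are heterozygous minus wild type. Levels were not compared between genes, since probe sets differ in how brightly they hybridise. Array medians lay between 6.74 and 6.90 in experiment 1 and between 7.04 and 7.08 in experiment 2. In experiment 1, Kmt2d probe set 10432294 read 7.87 to 7.90 in wild-type and 7.17 to 7.47 in heterozygous mice. In experiment 2 it read 8.32 to 8.76 and 7.88 to 8.18. The other Kmt2d probe set, 10432298, had overlapping genotypes in experiment 2. In experiment 1 it was slightly higher in heterozygous mice, at 9.84 to 9.95 against 9.82 to 9.83 in wild-type mice. Which part of the allele either probe set covers was not determined here. Wild-type replicate 2 of experiment 1 stood apart by its striatal markers, whose mean over 5 genes was 10.31 there and at most 8.01 on any other array. The markers of neurons were bright on every array, with means over 8 genes of 11.68 to 12.50, and those of dentate granule cells averaged 8.72 to 9.84 over 6 genes.

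The promoters of the members whose values differed most are shown first, as the 250 bases before the RefSeq start on assembly GRCm38.p6, 5′ to 3′ on the gene's strand. All 7 sirtuins matched, with 9 windows, since Sirt3 and Sirt6 have 2 starts each. Capitals mark matches, on either strand, to the E-box CACGTG, the GC box GGGCGG, the ETS core CCGGAAG and ACTACA, which is part of the motif of the factor ZNF143. Sirt1 is shown because it had the largest genotype difference. Sirt2 and Sirt6 had the largest rise and fall between the experiments, and Sirt4 shares the ACTACA match with Sirt2. The Sirt1 window is chr10:63339036-63339285 on the minus strand, the Sirt2 window chr7:28766502-28766751 on the plus strand, the Sirt4 window chr5:115484298-115484547 on the minus strand, and the first Sirt6 window chr10:81627567-81627816 on the minus strand. The Sirt4 window lies inside the span given for that gene below, and the first Sirt6 window lies mostly inside the span of its gene.
Sirt1: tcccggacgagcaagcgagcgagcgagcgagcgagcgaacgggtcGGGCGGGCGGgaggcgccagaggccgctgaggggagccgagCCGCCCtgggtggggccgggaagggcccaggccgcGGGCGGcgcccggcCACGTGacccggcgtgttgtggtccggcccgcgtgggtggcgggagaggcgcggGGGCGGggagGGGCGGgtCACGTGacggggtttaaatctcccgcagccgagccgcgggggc
Sirt2: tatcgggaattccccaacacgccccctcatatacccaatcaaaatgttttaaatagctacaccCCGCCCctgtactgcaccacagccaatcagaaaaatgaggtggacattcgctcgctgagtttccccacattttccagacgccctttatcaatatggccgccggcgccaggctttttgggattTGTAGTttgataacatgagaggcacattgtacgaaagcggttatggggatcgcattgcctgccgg
Sirt4: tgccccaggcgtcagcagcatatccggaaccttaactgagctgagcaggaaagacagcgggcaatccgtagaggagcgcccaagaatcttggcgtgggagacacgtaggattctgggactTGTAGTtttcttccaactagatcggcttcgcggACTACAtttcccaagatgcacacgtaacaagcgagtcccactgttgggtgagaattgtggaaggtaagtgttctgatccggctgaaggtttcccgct
Sirt6: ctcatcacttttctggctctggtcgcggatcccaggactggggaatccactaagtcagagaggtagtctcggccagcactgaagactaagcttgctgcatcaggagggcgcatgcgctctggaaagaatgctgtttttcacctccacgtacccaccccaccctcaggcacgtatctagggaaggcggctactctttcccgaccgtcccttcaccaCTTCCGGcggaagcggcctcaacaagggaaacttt

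The Sirt1 window held 2 E-boxes, which are palindromes counted once, and 6 GC boxes, some of them overlapping, and 79.2% of its bases were G or C. Among 32851 windows of all genes the median was 52.4%, 6.0% held the E-box and 0.4% held 2 or more. The GC box was found in 32.7% of all windows and 2 or more of them in 16.7%. The Sirt4 window, shown because of this match, held ACTACA in 2 places, once on each strand, and the Sirt2 window held it once. No other sirtuin window held it. Of all windows 8.9% had a match and 1.0% had 2 or more. The first Sirt6 window held 1 ETS core, as did the first Sirt3 window and the Sirt7 window, against 6.9% of all windows. These matches describe the letters only, and binding was not measured.

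Genotype was the comparison that both experiments share. None of the 7 sirtuins passed an adjusted p of 0.05 (limma, Benjamini-Hochberg over 19938 genes) with both experiments together, against a background of 0% of all genes. At an unadjusted p under 0.05 the count was 0 of 7, against 1046 genes or 5.25%. The difference was above 0 for 5 sirtuins and below 0 for Sirt2 and Sirt3, and 51.0% of all genes were above 0. The median over the 7 was 0.06, and over all genes 0.002. With both experiments together, the 95% intervals of all 7 lay between -0.26 and 0.32. Average changes of over 1.20-fold down or 1.25-fold up fall outside them. Intervals within single experiments reached further, to -0.51 for Sirt3 and 0.54 for Sirt1, both in experiment 2. A whole hippocampus mixes many cell types, and fewer cells of a type cannot be told apart from less RNA per cell.

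**Figure D1:**
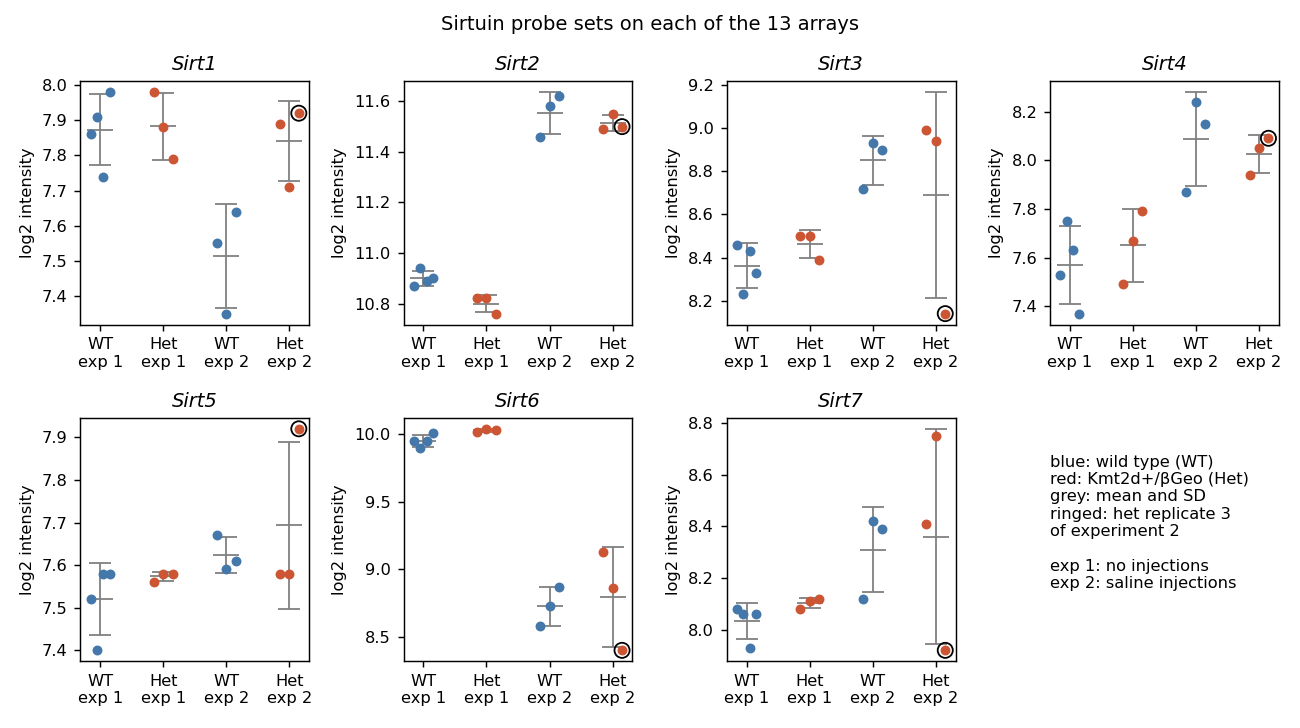
Log2 intensity of each sirtuin on each of the 13 arrays, 1 panel per gene, with wild-type and heterozygous mice of experiments 1 and 2 as separate groups, points for mice and bars for group means with SD, and heterozygous replicate 3 of experiment 2 ringed. Sirt6 lies between 9.90 and 10.04 in experiment 1 and between 8.40 and 9.13 in experiment 2, while Sirt5 stays between 7.40 and 7.92 throughout.

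Of the nuclear members, Sirt1 deacetylates histones and factors such as Foxo3 and Ppargc1a; its gene spans chr10:63319005-63339035. In experiment 1, Sirt1 read 7.86, 7.91, 7.74 and 7.98 in wild-type mice and 7.98, 7.88 and 7.79 in heterozygous mice. These genotypes covered the same range. In experiment 2, Sirt1 read 7.55, 7.35 and 7.64 in wild-type mice and 7.89, 7.71 and 7.92 in heterozygous mice. Every heterozygous mouse of experiment 2 was above every wild-type mouse there, as in 4.32% of all genes, with 0.07 between the nearest values. The 3 heterozygous mice of experiment 2 also fell within the range of experiment 1 or just under it, and the saline-injected wild-type mice were the low group. In the order of group means, heterozygous mice of experiment 1 (7.88 ± 0.09, SD, n = 3), wild-type mice of experiment 1 (7.87 ± 0.10, n = 4) and heterozygous mice of experiment 2 (7.84 ± 0.11, n = 3) overlapped. Wild-type mice of experiment 2 followed at 7.51 ± 0.15 (n = 3), below all others.

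The Sirt1 difference in experiment 2 was 0.33 ± 0.10 (SE), or 1.26-fold, with a 95% interval of 0.12 to 0.54. Its unadjusted limma p was 0.00474 and its adjusted p 0.349, so it did not pass, and over the alternatives tried the limma adjusted p ran from 0.189 to 0.916. The exact permutation test, two-sided, gave p = 0.1, the smallest that 3 against 3 mice allow. Sirt1 was the 1 sirtuin of 7 with separated genotypes in experiment 2, against 9.48% of all genes, and the 1 of 7 at an unadjusted p under 0.05, against 10.2%. None of the 7 passed the adjusted threshold there, against 0% of all genes. In experiment 1 the Sirt1 difference was 0.01 ± 0.09 (limma adjusted p = 1; exact permutation p = 0.886). The test of the change between these differences gave 0.32 ± 0.14, with an unadjusted limma p of 0.0338 and an adjusted p of 0.756. Over both experiments the difference was 0.16 ± 0.08, with limma adjusted p = 0.934 and exact permutation p = 0.0771. The GC-rich promoter with 2 E-boxes printed above is that of this gene.

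Sirt6, a nuclear deacylase of histone H3 with a role in DNA repair and glucose metabolism, spans chr10:81621787-81627792. In experiment 1, Sirt6 read 9.95, 9.90, 9.95 and 10.01 in wild-type mice and 10.02, 10.04 and 10.03 in heterozygous mice. The heterozygous mice were all above the wild-type mice, though only by 0.01 at the nearest point, and their difference was 0.08 ± 0.13 (limma adjusted p = 1; exact permutation p = 0.0571). That SE uses the spread of all 4 groups, with SDs of 0.05 in wild-type and 0.01 in heterozygous mice of experiment 1. The SDs in experiment 2 were 0.14 and 0.37. In experiment 2, Sirt6 read 8.58, 8.73 and 8.87 in wild-type mice and 9.13, 8.86 and 8.40 in heterozygous mice. There the heterozygous mice held both the highest and the lowest value, and the difference was 0.07 ± 0.14 (limma adjusted p = 0.889; exact permutation p = 0.9).

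Sirt7, a nucleolar deacetylase linked to transcription of ribosomal RNA genes, spans chr11:120618371-120625014. In experiment 1, Sirt7 read 8.08, 8.06, 7.93 and 8.06 in wild-type mice and 8.08, 8.11 and 8.12 in heterozygous mice. The heterozygous mice were again all higher, by 0.0035 at the nearest point (difference 0.07 ± 0.14; limma adjusted p = 1; exact permutation p = 0.0857). In experiment 2, Sirt7 read 8.12, 8.42 and 8.39 in wild-type mice and 8.41, 8.75 and 7.92 in heterozygous mice, which spanned the wild-type range on both sides. The difference there was 0.05 ± 0.15 (limma adjusted p = 0.924; exact permutation p = 0.9). Beside the separated values of Sirt6 and Sirt7 in experiment 1, the mean of the 6 dentate granule cell markers was also separated, at 8.85 to 9.57 in wild-type and 9.81 to 9.84 in heterozygous mice. All 6 were above 0 there (median 0.46) and none passed the adjusted threshold, while in experiment 2, 3 of 6 were above 0. The markers of ependyma were separated the other way, with means of 7.15 ± 0.08 (SD, n = 4) in wild-type and 6.79 ± 0.13 (n = 3) in heterozygous mice, with 6 of 6 below 0 and 5 at an unadjusted p under 0.05, against 3.5% of all genes. Of the choroid plexus markers 8 of 8 were below 0 (median -0.90), 6 of them at an unadjusted p under 0.05. Their means overlapped, at 8.20 to 9.53 in wild-type and 8.09 to 8.41 in heterozygous mice. Wild-type replicate 2, the array with striatal markers, gave the lowest of these wild-type means (8.20) and of the dentate ones (8.85). The part of these markers in the sirtuin values was not tested.

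Sirt2 deacetylates tubulin among other targets and is the main cytosolic sirtuin; its gene spans chr7:28766752-28788665. In experiment 1, Sirt2 read 10.87, 10.94, 10.89 and 10.90 in wild-type mice and 10.82, 10.82 and 10.76 in heterozygous mice. The highest heterozygous value was under the lowest wild-type value, with 0.04 between them. The difference was -0.10 ± 0.07 (limma adjusted p = 1), and the exact permutation test gave p = 0.0286, the smallest that 4 against 3 mice allow. In experiment 2, Sirt2 read 11.46, 11.58 and 11.62 in wild-type mice and 11.49, 11.55 and 11.50 in heterozygous mice. The genotypes overlapped there, with a difference of -0.04 ± 0.08 (limma adjusted p = 0.883; exact permutation p = 0.6). Over both experiments the difference was -0.07 ± 0.05, with limma adjusted p = 0.934 and exact permutation p = 0.0343. That exact p is unadjusted, 1 of 21 such tests on the 7 sirtuins, and the limma interval of -0.18 to 0.04 includes 0. With Sirt6 and Sirt7, Sirt2 made 3 of 7 members with separated genotypes in experiment 1, against 7.22% of all genes, 2.75% with heterozygous mice lower and 4.47% higher. None of the 7 passed the adjusted threshold there, against 4 genes or 0.0201%, and none had an unadjusted p under 0.05, against 698 genes or 3.5%. These limma p-values use the spread of all 4 groups. With the arrays of experiment 1 alone, 1282 of all genes had an unadjusted limma p under 0.05.

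Since Sirt2 is abundant in oligodendrocytes, the markers of these cells and of myelin are given beside it. Of 12 listed markers 11 were measured, and in experiment 1 all 11 were below 0 in heterozygous mice, with a median of -0.25. Their mean level was at least 10.44 in every wild-type mouse and at most 10.35 in every heterozygous mouse. In experiment 2, 10 of 11 were above 0, with a median of 0.21 and mean levels of 9.33 to 10.12 in wild-type and 9.80 to 10.13 in heterozygous mice, while Sirt2 was slightly below 0. No marker passed the adjusted threshold of limma in either experiment, while 2 of 11 had an unadjusted p under 0.05 in each, against 3.5% of all genes in experiment 1 and 10.2% in experiment 2. Mbp, a major myelin protein gene, differed by -0.13 ± 0.09 over both (limma adjusted p = 0.934). The part of these markers in the Sirt2 values was not tested.

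**Figure D2:**
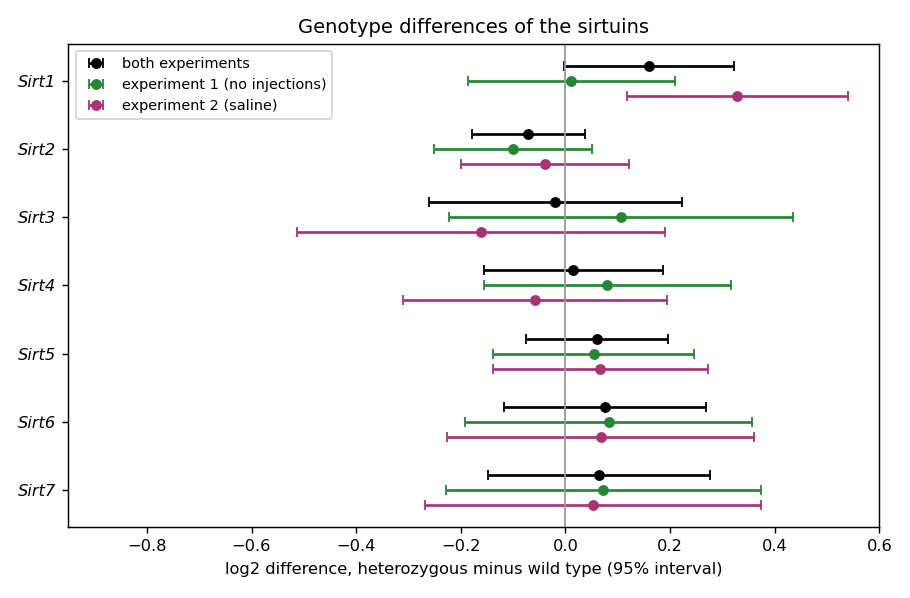
Genotype difference of each sirtuin (heterozygous minus wild type, log2, horizontal axis) with 95% limma intervals, over both experiments and in each experiment. The interval of Sirt1 in experiment 2, 0.12 to 0.54, is the one of 21 that does not reach 0, and its adjusted p is 0.349.

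The mitochondrial members showed no separated genotypes in either experiment. Sirt3, the main mitochondrial deacetylase, with Sod2 and Idh2 among its targets, spans chr7:140863663-140882309. In experiment 1, Sirt3 read 8.46, 8.23, 8.43 and 8.33 in wild-type mice and 8.50, 8.50 and 8.39 in heterozygous mice, a difference of 0.11 ± 0.15. In experiment 2, Sirt3 read 8.72, 8.93 and 8.90 in wild-type mice and 8.99, 8.94 and 8.14 in heterozygous mice. The first 2 heterozygous mice were above every wild-type mouse and the third was below all of them, so that the SD was 0.47 and the difference -0.16 ± 0.17 (limma adjusted p = 0.754).

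Sirt4, which acts on enzymes of amino acid and fatty acid use, spans chr5:115478006-115490264. In experiment 1, Sirt4 read 7.53, 7.75, 7.63 and 7.37 in wild-type mice and 7.49, 7.67 and 7.79 in heterozygous mice (difference 0.08 ± 0.11). In experiment 2, Sirt4 read 7.87, 8.24 and 8.15 in wild-type mice and 7.94, 8.05 and 8.09 in heterozygous mice (difference -0.06 ± 0.12). The heterozygous mice lay inside the wild-type range in experiment 2 and reached slightly above it in experiment 1. Over both experiments the Sirt4 difference was 0.01 ± 0.08 (limma adjusted p = 0.989).

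Sirt5, which removes succinyl, malonyl and glutaryl groups, spans chr13:43365389-43395203. In experiment 1, Sirt5 read 7.52, 7.40, 7.58 and 7.58 in wild-type mice and 7.56, 7.58 and 7.58 in heterozygous mice. In experiment 2, Sirt5 read 7.67, 7.59 and 7.61 in wild-type mice and 7.58, 7.58 and 7.92 in heterozygous mice. A single value to 4 decimals, 7.58 when rounded, was shared by 5 of the 13 arrays, which RMA's median polish can give. The SD of 0.01 in heterozygous mice of experiment 1 may therefore understate the spread between mice. The differences were 0.05 ± 0.09 and 0.07 ± 0.10, and over both experiments 0.06 ± 0.06 (limma adjusted p = 0.946).

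A single mouse, heterozygous replicate 3 of experiment 2, moved several of these values and set the sign in experiment 2 for Sirt3 and Sirt5 alone. It was the lowest of its group for Sirt3, Sirt6 and Sirt7 and the highest for Sirt1, Sirt4 and Sirt5. Without it, the experiment 2 differences became 0.11 for Sirt3, 0.27 ± 0.10 for Sirt6, 0.27 ± 0.11 for Sirt7, -0.05 for Sirt5 and 0.29 for Sirt1. None of these passed, with limma adjusted p of 0.842, 0.580, 0.619, 0.940 and 0.571 in that order. Over both experiments Sirt6 became 0.16 (limma adjusted p = 0.876), Sirt7 0.15 and Sirt3 0.11 (both 0.918). Over all genes this array also had the largest median distance from its group mean, 0.11, against 0.05 to 0.10 on the other 12 arrays. Without wild-type replicate 2 of experiment 1, the array with striatal markers, the sirtuin differences in experiment 1 kept their signs and ran from -0.09 for Sirt2 to 0.14 for Sirt4.

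Between the genotype comparisons, which share no mouse, 5 of 7 sirtuins had the same sign in both experiments, against 48.2% of all genes. Sirt1, Sirt5, Sirt6 and Sirt7 were above 0 in both, against 26.4% of all genes, and Sirt2 was below 0 in both. Each of those 4 positive signs turned when 1 mouse was left out. Sirt5 in experiment 2 became -0.05 without the mouse named above, Sirt1 in experiment 1 -0.036 without heterozygous replicate 1, Sirt6 in experiment 2 -0.10 without heterozygous replicate 1 and Sirt7 in experiment 2 -0.14 without heterozygous replicate 2. No sirtuin passed the test of a difference between the experiments' genotype effects, against 0% of all genes. At an unadjusted p under 0.05 it was Sirt1 alone, against 6.53%.

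The experiments themselves were much further apart than the genotypes. They are described as separate microarray experiments, with and without injections, and may differ in normalisation, and these differences cannot be told apart. The Sirt5 value shared by 5 arrays, 7.5771, occurred in both experiments. Whether the 13 arrays were normalised together was not tested. Over both genotypes, 6 of 7 sirtuins passed the adjusted threshold between experiments (85.7%), against 77.2% of all genes. Sirt2, Sirt3, Sirt4 and Sirt7 were higher in experiment 2, against 41.8% of all genes, and Sirt1 and Sirt6 lower, against 35.4%. The share that passed is near the background. With the dim 50% of genes left out, all 7 sirtuins remained, and 2140 genes passed as higher and 5880 as lower, with a median of -0.32. For Sirt2, Sirt4 and Sirt6 the experiments did not overlap on any array, 3 of 7 against 52.8% of all genes.

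Sirt6 had the largest difference of the family. Its difference was -1.23 ± 0.09, or 2.34-fold lower in experiment 2 (limma adjusted p = 3.57e-09). Sirt2 was higher by 0.68 ± 0.05, or 1.60-fold (limma adjusted p = 3.71e-09), and Sirt4 by 0.45 ± 0.08, or 1.37-fold (limma adjusted p = 8.68e-05). Sirt2 and Sirt6 thus went opposite ways on every array, in wild-type mice (0.65 and -1.22) and in heterozygous mice (0.72 and -1.24). The smaller differences were 0.36 ± 0.11 for Sirt3 (limma adjusted p = 0.00855), 0.27 ± 0.10 for Sirt7 (0.0225) and -0.21 ± 0.08 for Sirt1 (0.0203). Sirt5 differed by 0.11 ± 0.06 and did not pass (limma adjusted p = 0.116).

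In wild-type mice alone, 5 of 7 passed, against 69.3% of all genes, with 3 higher (37.3% of all genes) and 2 lower (32%). In heterozygous mice alone 3 of 7 passed, against 62.3%, with 2 higher (31%) and 1 lower (31.3%). With the dim 50% of genes left out, 2018 genes were higher and 5381 lower in wild-type mice, and 1696 and 5413 in heterozygous mice. Sirt1 fell by 0.36 in wild-type mice (limma adjusted p = 0.00309) and was -0.04 in heterozygous mice (limma adjusted p = 0.734). After centring each array on its median, Sirt1 was lower in heterozygous mice too (-0.29; limma adjusted p = 0.0291). The contrast of these differences is the same test as that of the genotype effects, which did not pass (adjusted p = 0.756). Sirt3 was 0.49 in wild-type mice (limma adjusted p = 0.0108) and 0.22 in heterozygous mice (0.254), and without heterozygous replicate 3 of experiment 2 the latter became 0.49 (0.000536). Sirt7 was 0.28 and 0.26, and neither passed on its own (limma adjusted p = 0.0917 and 0.148). In wild-type mice Sirt7 passed after quantile normalisation (0.39; limma adjusted p = 0.0357) and with array weights (0.0197). With its value unchanged it also passed when heterozygous replicate 2 (0.0362) or 3 (0.0168) of experiment 2 was left out of the fit. Without replicate 3 Sirt7 was 0.48 in heterozygous mice (0.00236), so 5 of 7 passed there.

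**Figure D3:**
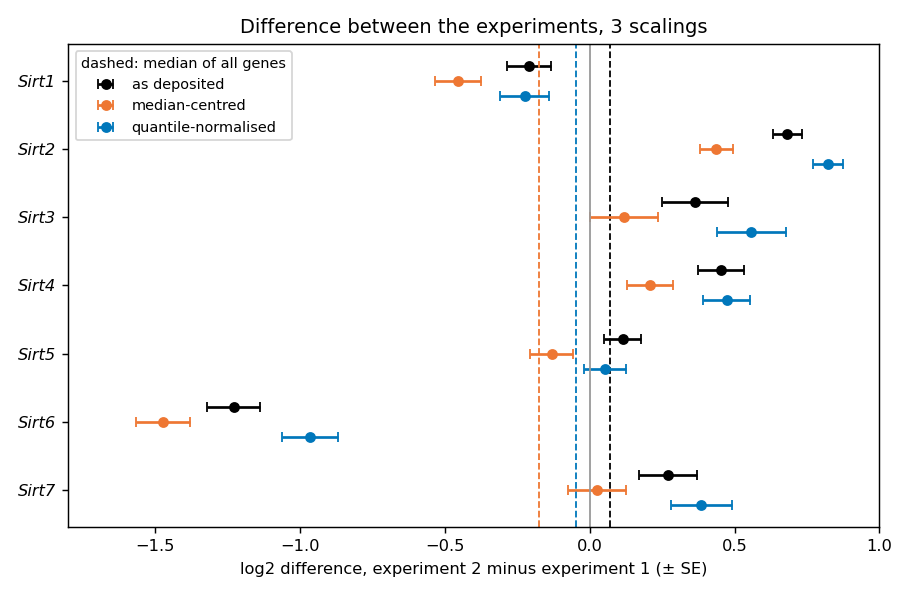
Difference between the experiments (experiment 2 minus experiment 1, log2, horizontal axis, with SE) for each sirtuin on the deposited values, after centring each array on its median and after quantile normalisation, with the median of all genes under each as a dashed line. Sirt6 is below 0 and Sirt2 above 0 under all 3, while Sirt5 turns from 0.11 to -0.13 with centring.

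The scale of the arrays bears on these values. The median of all genes was 0.07 on the deposited values, -0.17 after centring each array on its median and -0.05 after quantile normalisation of the 13 arrays. The share of higher genes among those called was 54.2%, 28.3% and 41.0% in that order. Sirt6 was -1.47 and -0.96 under those alternatives, Sirt2 0.44 and 0.82, Sirt4 0.21 and 0.47, and Sirt1 -0.46 and -0.22, and all these passed. Sirt3 and Sirt7 passed after quantile normalisation (0.56 and 0.39) and not after centring (0.12 and 0.02; limma adjusted p = 0.375 and 0.845). Leaving out wild-type replicate 2 of experiment 2 took Sirt1 to -0.15, which did not pass (limma adjusted p = 0.0673). Sirt7 did not pass without that mouse (0.0545), without wild-type replicate 3 (0.0504) or without heterozygous replicate 2 (0.0565) of experiment 2.

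Cell type markers differed between the experiments too. Of 8 neuron markers 7 were lower in experiment 2 (median -0.70), and of 7 astrocyte markers all were (median -0.77), against 35.4% of all genes. Both lists are bright, with means per array of 11.68 to 12.50 and 10.30 to 11.26. With the dim 50% of genes left out, 5880 genes were lower and 2140 higher (median -0.32). Of 11 oligodendrocyte and myelin markers 7 were lower and 1 higher (median -0.71), with Mbp at -1.03 ± 0.09. Sirt2 was higher where these markers were lower, and the part of the markers in this was not tested.

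Genes that act on or with the sirtuins were read from lists of their regulators, of NAD supply and use, of their substrates and of the zinc-dependent deacetylases, which remove the same acetyl groups without NAD. No member of any of the 5 lists passed the adjusted threshold of limma for genotype over both experiments. At an unadjusted p under 0.05 there were 2, Nmrk1 and Qprt, both of NAD supply and use, and 0 in the other lists, against 5.25% of all genes. Of 12 regulators 4 were above 0 and 8 below (median -0.01). Senp1, a SUMO protease that acts on Sirt1, differed by 0.09 ± 0.05, and Smurf2, a ubiquitin ligase, by 0.10 ± 0.10 (limma adjusted p = 0.934 and 0.943). The Sirt1 inhibitor Ccar2 and the Sirt1 activator Rps19bp1 were at -0.02 and -0.05.

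NAD supply and use had 17 of 18 genes measured, 9 above 0 and 8 below, with a median of 0.004. Nmrk1, the kinase that turns nicotinamide riboside into an NAD precursor, had the lowest p of the list at 0.35 ± 0.09 over both experiments. It was 0.26 in experiment 1 and 0.46 in experiment 2, with an unadjusted limma p of 0.00128 and an adjusted p of 0.553 over both, and so did not pass. Qprt, of the synthesis from tryptophan, was -0.14 ± 0.07 (limma adjusted p = 0.934), and Nampt, the rate-limiting enzyme of NAD salvage, 0.07 ± 0.19 (0.975).

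Of 21 nuclear and cytosolic substrates measured from 24, 10 were above 0 and 11 below (median -0.001). Per2 of the clock and Srebf1 of lipid synthesis had the lowest p, both at -0.15 (limma adjusted p = 0.934), and Ppargc1a and Foxo3 were at -0.04 and -0.03. Of 20 mitochondrial substrates measured from 22, 9 were above 0 and 11 below (median -0.005). Cpt2 and Hadha of fatty acid oxidation were at -0.15 and -0.10 (limma adjusted p = 0.934), and Sod2 and Idh2 at -0.02 and -0.05. Of 11 zinc-dependent deacetylases 5 were above 0 and 6 below (median -0.01), with Hdac2 at -0.15 ± 0.13 and Hdac11 at -0.07 ± 0.06 (limma adjusted p = 0.934).

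**Figure D4:**
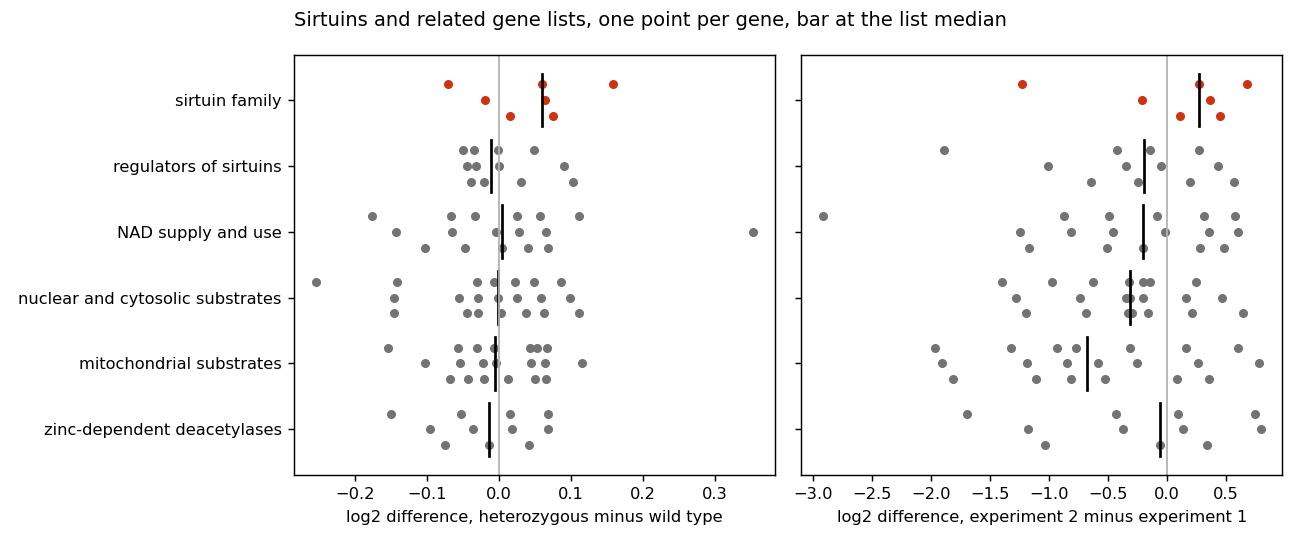
Log2 differences of the members of each gene list, genotype over both experiments and experiment 2 minus experiment 1 in separate panels, 1 point per gene with the median marked. The genotype medians of the 6 lists lie between -0.01 and 0.06, while between the experiments the mitochondrial substrates have a median of -0.68 and the sirtuins 0.27.

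Between the experiments most genes of these lists passed, against 77.2% of all genes, 41.8% higher and 35.4% lower. With the dim 50% of genes left out, 2140 genes were higher and 5880 lower. The sirtuins had 4 higher and 2 lower, and the mitochondrial substrates had 5 higher and 14 lower, with a median of -0.68. Opa1, of mitochondrial fusion, was at -1.97, Sod2 at -1.81 and Idh2 at -0.32, while Atp5o, of the ATP synthase, rose by 0.78. NAD supply and use had 6 higher and 9 lower, and there Nampt was at -2.92 ± 0.19, Nmrk1 fell by 0.87 and Nmrk2 rose by 0.61. The nuclear and cytosolic substrates had 4 higher and 14 lower, led by Pck1 (0.64) and by Acss2 (-1.40), an acetyl-CoA synthetase, with Ppargc1a at -0.74 and Foxo3 at -0.30. Regulators had 4 higher and 7 lower, led by Lmna (0.57) and Smurf2 (-1.89), with Rps19bp1 at 0.44 and Ccar2 at 0.19.

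The zinc-dependent deacetylases had 3 higher and 5 lower, led by Hdac10 (0.79) and Hdac2 (-1.70). That list turned to 6 higher and 3 lower after quantile normalisation and was 2 and 6 after centring. The mitochondrial substrates were 3 higher and 13 lower after quantile normalisation and 2 and 14 after centring. In NAD supply and use the counts were 3 and 7, then 3 and 10.

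The genes whose pattern was nearest to each sirtuin were named by Pearson's r over the 13 arrays after each experiment's mean was subtracted. All r values describe these arrays, in which any array-wide effect is shared by the genes, and carry no test. Nearest to Sirt1 were Olfr850 (r = 0.942), Tpbgl (0.917) and Ccdc173 (0.906), and nearest to Sirt2 were Abat (0.900), Rbpjl (0.884) and Arap1 (0.875). Sirt4 had Shkbp1 (0.929), Lrrc29 (0.917) and Tsnax (0.879). With 1 array left out, the lowest r of these 9 genes ran from 0.828, for Ccdc173 without wild-type replicate 2 of experiment 2, to 0.915. For the other members the values are also given without heterozygous replicate 3 of experiment 2. Sirt3 had Slc27a4 (0.976, and 0.896 without that mouse), Upf1 (0.975 and 0.845) and Spata2 (0.969 and 0.839). Sirt5 had Metap1 (0.945 and 0.799), Rbsn (0.928 and 0.808) and Eif4h (0.920 and 0.797). Sirt6 had Ehmt2 (0.943 and 0.892), Bptf (0.933 and 0.882) and Uts2b (0.932 and 0.869), and Sirt7 had 0610040J01Rik (0.946 and 0.894), Drp2 (0.941 and 0.908) and Olfr312 (0.915 and 0.832). Within the family the highest r was 0.82, between Sirt3 and Sirt6, followed by 0.77 for Sirt3 and Sirt7 and 0.71 for Sirt6 and Sirt7, the 3 members for which that mouse was low. Sirt5 went the other way, with r of -0.72 to Sirt3 and to Sirt7, and Sirt2 ranged from -0.45 with Sirt5 to 0.24 with Sirt7. The r values within the family are not given without heterozygous replicate 3 of experiment 2. That mouse differed from its group mean by -0.55 for Sirt3, -0.40 for Sirt6, -0.44 for Sirt7 and 0.23 for Sirt5.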

How the data were processed

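Total RNA of 13 hippocampi was extracted with RNeasy columns, amplified with an Ambion WT kit and labelled with biotin, per the labels' protocols. The authors deposited log2 intensities per probe set. The submitters' processing notes name RMA and oligo. Versions, build and any joint normalisation of the experiments were not given in the sources used here. All per-sample columns were used.

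The platform annotation supplied the names: 21789 had 1 gene symbol, 1621 several and 12146 stayed unnamed here. Each of 19938 genes was represented by its brightest probe set (999 had a choice). Differences were tested with limma 3.58.1 in R 4.3.3 (statmod 1.5.0), with an additive model of genotype and experiment or a model of the 4 groups, and Benjamini-Hochberg adjustment over all genes at 0.05. Exact permutation tests, two-sided, used 700 regroupings of genotype within experiments, 35 in experiment 1 and 20 in experiment 2. The number of arrays limits the precision, and p-values measure the spread between these mice. In the limma fits that spread is pooled over all 4 groups, so values of a single experiment also carry the spread of the other. Fitted alone, experiment 1 had 1282 genes at an unadjusted limma p under 0.05, against 698 in the pooled fit. Experiment 2 alone had 1006, against 2042. The fit was tested on simulated data.

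All sirtuins are named. From each list the 2 genes of lowest genotype p and the largest rise and fall between experiments are named, with Nampt, Nmrk1, Ccar2, Rps19bp1, Ppargc1a, Foxo3, Sod2, Idh2 and Mbp whatever their values. The 3 genes of highest r are named per sirtuin. The members and lists were chosen with earlier results of these data known. Alternatives were every probe set, the mean of a gene's probe sets, dim genes left out, median centring, quantile normalisation, other limma settings, a replicate block and each array left out. Replicate numbers did not pair the mice, so the block is an alternative only. Marker lists of endothelium, microglia, ependyma and choroid plexus had no gene that passed for genotype over both experiments. Between experiments they had 1 higher and 3 lower of 4, 2 and 2 of 5, 3 and 1 of 6, and 0 and 4 of 8, the dentate list 0 and 5 of 6, and the striatal list 0 of 5. Of all genes 41.8% were higher and 35.4% lower.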

Additional observations from a re-analysis of the deposited data

Results flagged for a closer look

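In a group of 4 arrays, the highest or lowest value was set against the range of its group for the 32 named genes, and 4 values lay far from the rest. The wild-type mice of experiment 1 were the only group of 4, so only they were examined. Chance gives about 1 in 20 such groups. Sirt7 was 7.93 in replicate 3, while the other 3 mice read 8.06 to 8.08. Hadha was 10.09 in replicate 2, the mouse with bright striatal markers, while the others read 10.28 to 10.29. Acss2 was 9.71 in the same mouse, while the others read 10.14 to 10.23. Senp1 was 8.10 in replicate 1, while the others shared the value 8.04. With the others tied, the gap is the whole range whatever its size, so the rate above does not apply to Senp1.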

How the results depend on the processing

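The sirtuin counts for genotype stayed at 0 of 7 under every alternative run, and none of 469 genotype values of single sirtuins passed, with a lowest limma adjusted p of 0.189 (Sirt1 in experiment 2). Between the experiments 4 to 6 of 7 passed over both genotypes and 4 to 6 in wild-type mice. In heterozygous mice the count of 3 rose to 5 with array weights, and it ran from 2 to 5 with 1 array left out; Sirt4 there did not pass after centring (limma adjusted p = 0.362) or without heterozygous replicate 1 of experiment 1 (0.0665). Signs turned mostly for values near 0. With array weights they were 0.072 for Sirt3 over both experiments, -0.0052 for Sirt1 in experiment 1, and -0.016, 0.019 and 0.12 for Sirt5, Sirt6 and Sirt7 in the difference of the genotype effects. Without wild-type replicates 2 and 3 of experiment 1 and heterozygous replicate 3 of experiment 2 together, Sirt3 was 0.093 and Sirt5 -0.012. After centring, Sirt5 between experiments was -0.13 over both genotypes, in wild-type and in heterozygous mice, and Sirt3 in heterozygous mice -0.028. With 1 array left out, the genotype difference over both experiments ran from -0.066 to 0.11 for Sirt3, from -0.026 to 0.053 for Sirt4 and from -0.015 to 0.15 for Sirt7, and in experiment 1 from -0.036 to 0.058 for Sirt1. In experiment 2 it ran from -0.31 to 0.11 for Sirt3, from -0.17 to 0.016 for Sirt4, from -0.048 to 0.12 for Sirt5, from -0.10 to 0.27 for Sirt6 and from -0.14 to 0.27 for Sirt7. The difference of the effects ran from -0.42 to 0.0054 for Sirt3, from -0.10 to 0.069 for Sirt5, from -0.18 to 0.18 for Sirt6 and from -0.21 to 0.20 for Sirt7. Sirt1 between experiments in heterozygous mice ran from -0.087 to 0.025, and it passed after centring (-0.29). The cause of these changes was not tested.

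Over all genes, 0 passed for genotype over both experiments; this was 21 with array weights and up to 2 with 1 array left out. In experiment 1 the 4 genes became 163 with array weights, 1 with the block, 2 after quantile normalisation, 2 with the arrays of that experiment alone, 0 with every probe set or the dim 50% left out, and 0 to 48 with 1 array left out. In experiment 2 the count was 2 after quantile normalisation and 91 without heterozygous replicate 1. Between experiments 15385 genes passed, 8020 with the dim 50% left out and 26086 of all probe sets. Same-numbered mice correlated at 0.22, -0.09 and -0.23 in experiment 1 and at -0.21, -0.04 and -0.12 in experiment 2, so the numbers did not pair them. With the replicate block, 0 of 7 sirtuins passed for genotype over both experiments, in each experiment and in the difference of the effects; 6 of 7 passed between experiments; and Sirt4 over both experiments was -0.024 and Sirt5 in the difference of the effects -0.0077. With 3 or 4 mice a group, differences of the size of the intervals given could not be told from 0.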
